A study of Mus musculus with 9 samples.

Results

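The genes described here are 68 developmental and lineage transcription factor rows of a table of RNA-seq read counts from 3 mouse tumour cell lines. They are the rows whose symbols belong to the SOX, forkhead, Krüppel-like (KLF), GATA, Hox, RUNX, ETV, HES, ID, ONECUT, TWIST, PRRX, Snail, ZEB, PAX, MEIS, PBX, T-box and further homeobox families, by a pattern of symbols and without Foxa1 and Etv5. LHX and MSX symbols are in the pattern too, but no such row was in the table. The pattern matched 70 of the 11046 rows of the table, which left 68 after those 2 genes were set aside. The pattern reads symbols alone, but the families were picked with earlier results of these data known. By RefSeq gene type, 65 of the 68 code for proteins, and Foxd2os, Hoxd3os1 and Zeb2os are long noncoding RNAs named after a neighbouring gene. RefSeq lists 204 protein-coding mouse genes with symbols of this pattern, and the 139 without a row (among them Sox10, Sox2, Pax3, Msx1 and Gata6) were not analysed here.

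The series relates the electrical effects of brain metastases to their transcriptomes, and these libraries compare the tumour lines themselves in culture. 482N1 is labelled as a lung cancer line of the non-small-cell type, B16/F10-BrM as a melanoma line with mutant BRAF, and E0771-BrM as breast cancer of the triple negative kind, where BrM means brain metastatic. The labels give the genotype of all 3 as WT and no treatment for any. For B16/F10-BrM the entry WT differs from the mutant BRAF named for it, and the sequence of Braf was not examined here. 482N1 and B16/F10-BrM grew in DMEM, and E0771-BrM grew in RPMI 1640 with HEPES, so line and medium cannot be told apart for E0771-BrM. Each line has 3 libraries of poly(A)-selected RNA (A, B and C), and nothing in the labels says that these are separate cultures, so p-values may measure technical spread. Each line is 1 cell line, and a difference between lines is not one between tumour types.

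Levels are given in CPM, which are read counts relative to the scaled library size, and follow the order A, B, C. They are not divided by gene length, so they compare libraries for 1 gene and not genes with each other. A gene was called higher or lower where its Benjamini-Hochberg adjusted p from edgeR's quasi-likelihood test over all 11037 genes tested was below 0.05. Unless another tool is named, every adjusted p comes from that test, a log2 fold change is its coefficient, and a fold is the ratio of mean CPM. Unless marked SD, the value after ± is the size of the coefficient divided by the square root of the test's F statistic. It is no interval, and it can be too narrow where a line is near 0. A log2 fold change is positive where B16/F10-BrM or E0771-BrM exceeded 482N1, and, between those lines, where E0771-BrM exceeded B16/F10-BrM. Where a line had no count in its 3 libraries, the fold is "at least" the ratio to 3 counts over those libraries. In whole cultures, fewer cells of a kind and less RNA per cell cannot be told apart.

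Most of these families are DNA-binding regulators of cell fate and of tissue pattern in the embryo. SOX proteins bend DNA through an HMG box, forkhead and homeobox proteins bind through the domains that name them, and KLF, GATA, Snail and ZEB proteins use zinc fingers. HES, ID and TWIST proteins share a helix-loop-helix fold: HES proteins are repressors downstream of Notch, and ID proteins bind other helix-loop-helix proteins and keep them off DNA. In adult tissues many of them mark a lineage, and carcinomas and melanomas keep, lose or regain them.

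Library totals ran from 7332390 to 9293348 counts. The lines carried markers of their labels in part. The melanocyte markers Dct, Pmel, Tyrp1, Mitf and Gpnmb (5 of 10 listed were measured) summed to between 24629 and 25484 CPM in B16/F10-BrM. The epithelial keratins Krt8 and Krt18 (2 of 10 measured) summed to between 7289 and 7908 CPM in 482N1, 171 to 208 in E0771-BrM, and at most 0.125 in B16/F10-BrM. Of the lung list 1 of 8 markers was measured (Abca3). It was at 23.9, 21.8 and 21.2 CPM in 482N1, 8.75, 13.5 and 10.4 in B16/F10-BrM and 0, 0.24 and 0.125 in E0771-BrM. Of the mammary list 1 of 8 was measured (Areg), at 69.5, 83.9 and 69.2 CPM in 482N1 against 45.2, 41.4 and 56 in E0771-BrM. The lung and mammary labels could not be checked further. A low level of some melanocyte RNAs differed between libraries of the other lines. Dct, an enzyme of melanin synthesis, had 142, 14 and 148 counts in 482N1 and 353, 29 and 263 in E0771-BrM, lowest in library B of each. These counts equal 0.00979% to 0.109% of the B16/F10-BrM level in 482N1 and 0.0202% to 0.26% in E0771-BrM. Pmel and Tyrp1 were lowest in library B of both lines too. Mitf and Gpnmb were lowest in library B in 482N1 only. In E0771-BrM they had 304, 292 and 267 counts (Mitf) and 557, 528 and 513 counts (Gpnmb). The 5 melanocyte markers summed to 2.77 to 28.1 CPM in 482N1 and 103 to 162 in E0771-BrM. Fits with library B alone of 482N1 and E0771-BrM are given because of the Dct, Pmel and Tyrp1 counts. They are given for members near 0 in E0771-BrM and wherever they change a call. Such a fit holds 1 library of each of these lines, so its spread comes from B16/F10-BrM alone.

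Most of the 68 genes were called in each comparison, and 43 (63.2%) in all 3, against 47.4% of all genes tested. The median spread between the highest and lowest line mean was 2.78 on the log2 scale for these genes, beside 1.12 for all genes tested. In B16/F10-BrM against 482N1, 19 of the 68 were higher, against 38% of all genes tested, and 41 were lower, against 39.9%. In E0771-BrM against 482N1, 23 were higher, against 37.7%, and 36 were lower, against 40.4%. In E0771-BrM against B16/F10-BrM, 34 were higher, against 37.2%, and 25 were lower, against 36.5%. The joint test over the 3 lines called 67, against 92.1% of all genes, and Foxo4 was the exception.

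In each comparison at least 23 of these genes passed a fitted fold of 8. A call with a fitted fold of at least 8 was made for 27 of the 68 between B16/F10-BrM and 482N1, against 9.59% of genes tested, for 23 between E0771-BrM and 482N1, against 8.74%, and for 28 between E0771-BrM and B16/F10-BrM, against 9.53%. With genes at 0 in a line counted by their bound, these were 25, 22 and 28. The median absolute log2 fold change of these genes in the same order was 2.05, 1.80 and 1.75, beside 0.79, 0.79 and 0.68 for all genes. The signed medians were -0.84, -0.45 and 0.43, beside -0.04, -0.04 and 0.02, and they were the same when genes without counts in a line were set to their bound.

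By line, 482N1 had the most members at their highest level. A gene counts as highest in a line where it was called higher there than in both other lines. Of the 68, 30 were highest in 482N1, against 26.3% of genes tested, 11 in B16/F10-BrM, against 21%, and 15 in E0771-BrM, against 20.7%. The lowest level lay in 482N1 for 13, against 24.2%, in B16/F10-BrM for 26, against 22.5%, and in E0771-BrM for 15, against 21.1%. The members took 0.647% to 0.665% of all counts in 482N1, 0.285% to 0.293% in B16/F10-BrM and 0.263% to 0.279% in E0771-BrM. In each line a few members had no count in any library, 11 of the 68 in all, against 3.01% of genes tested. Among these were Hoxa10, Hoxb3 and Hoxd3os1 in 482N1, Prrx1, Snai1, Twist1 and Twist2 in B16/F10-BrM, and Foxd2os, Hes6 and Sox21 in E0771-BrM.

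**Figure D1:**
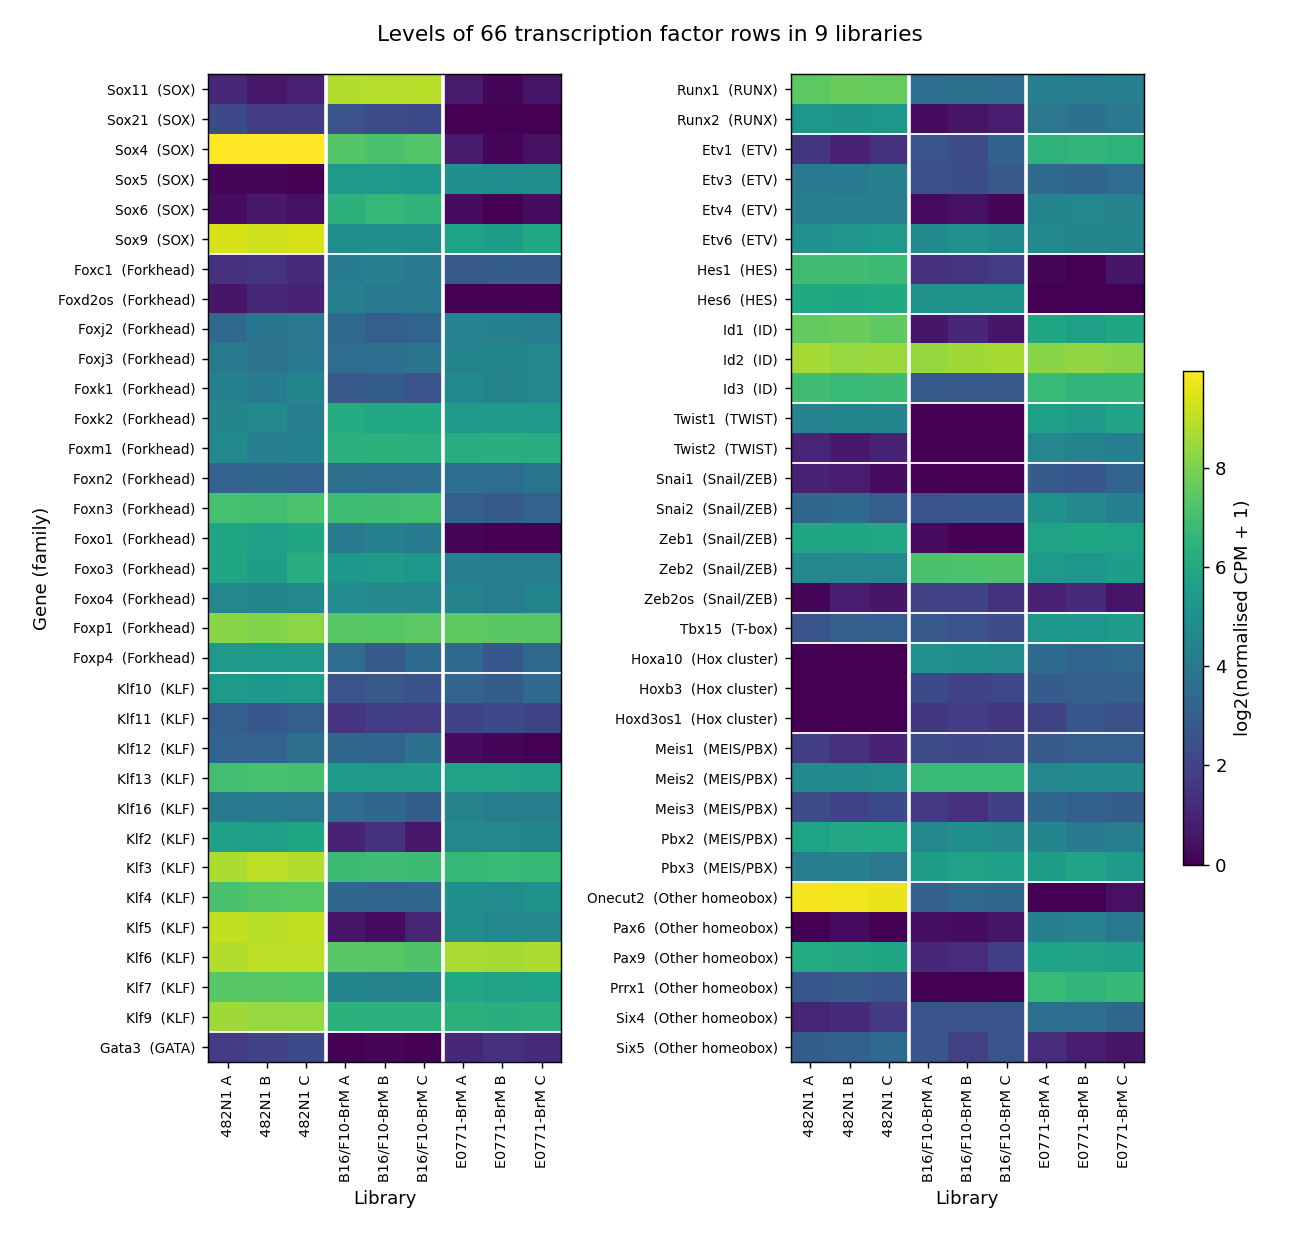
Levels of 66 of the 68 genes in each of the 9 libraries, as log2 of normalised CPM plus 1 (colour), with genes grouped by family (rows) and libraries grouped by line (columns). Libraries of a line look alike, and blocks of dark cells mark genes at or near 0 in 1 line, such as Twist1 and Prrx1 in B16/F10-BrM.

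Each line held a different set of SOX genes. Sox4, a SoxC factor of progenitor cells, was at 1008, 999.9 and 992 CPM in 482N1, 157, 138 and 152 CPM in B16/F10-BrM, and 0.634, 0.12 and 0.374 CPM in E0771-BrM. The 3 lines did not overlap, and E0771-BrM had 5, 1 and 3 counts. Sox4 was 6.71-fold lower in B16/F10-BrM than in 482N1 (log2 fold change -2.74 ± 0.08, adjusted p = 6.59e-34) and 2658-fold lower in E0771-BrM than in 482N1 (-11.34 ± 0.15, adjusted p = 2.26e-46). Its close relative Sox11, a factor of developing neurons, stood at 1.16, 0.602 and 0.887 CPM in 482N1, 449, 462 and 484 CPM in B16/F10-BrM, and 0.634, 0.12 and 0.499 CPM in E0771-BrM. B16/F10-BrM lay 526-fold above 482N1 (9.03 ± 0.15, adjusted p = 2.37e-43), and E0771-BrM lay 1113-fold below B16/F10-BrM (-10.09 ± 0.16, adjusted p = 5.42e-43). Thus 482N1 and B16/F10-BrM each held a SoxC gene at a high level, and E0771-BrM held both near 0.

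The promoters of this pair are shown because the genes belong to 1 group of SOX factors and were high in different lines. Each line below gives the 250 bases before the transcription start that RefSeq lists (build GRCm38.p6, not the authors' GRCm39), with GC boxes (GGGCGG on either strand) in capitals. Sox4 lies at chr13:28953700-28953949, minus strand, with 11 CpG dinucleotides and 0 GC boxes, and Sox11 at chr12:27342719-27342968, minus strand, with 17 CpG dinucleotides and 2 GC boxes.
Sox4: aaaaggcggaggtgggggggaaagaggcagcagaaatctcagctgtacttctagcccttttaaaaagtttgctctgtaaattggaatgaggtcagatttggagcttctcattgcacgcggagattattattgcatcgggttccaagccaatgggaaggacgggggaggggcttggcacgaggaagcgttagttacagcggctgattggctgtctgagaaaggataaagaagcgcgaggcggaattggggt
Sox11: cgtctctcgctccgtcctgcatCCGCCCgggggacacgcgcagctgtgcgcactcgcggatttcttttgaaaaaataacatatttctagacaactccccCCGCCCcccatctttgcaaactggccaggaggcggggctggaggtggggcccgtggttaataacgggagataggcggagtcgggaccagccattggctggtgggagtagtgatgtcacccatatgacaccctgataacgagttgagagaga
A match of letters is a description and no evidence of binding.

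The SoxD genes, which lack an activation domain and act with other SOX factors, were both highest in B16/F10-BrM. Sox6 stood at 0.258, 0.602 and 0.38 CPM in 482N1, 85.1, 99.6 and 89.8 CPM in B16/F10-BrM, and 0.254, 0 and 0.249 CPM in E0771-BrM, so that its B16/F10-BrM libraries lay far above all others. It was 221-fold higher there than in 482N1 (7.72 ± 0.22, adjusted p = 7.26e-34). Sox5 was at 0.129, 0.12 and 0 CPM in 482N1, 40.6, 41.7 and 38.9 CPM in B16/F10-BrM, and 31.6, 28 and 30.7 CPM in E0771-BrM. Only 482N1 was near 0, with 2 counts in its 3 libraries, and the count ratio of B16/F10-BrM to 482N1 was 484-fold (95% counting interval 134 to 3998). Sox5 was also 1.34-fold lower in E0771-BrM than in B16/F10-BrM (-0.43 ± 0.12, adjusted p = 0.00101).

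Sox9, a regulator of cartilage and of ductal progenitors that pairs with SoxD proteins in cartilage, was highest in 482N1. It stood at 666, 603 and 666 CPM in 482N1, 28.6, 31 and 29.8 CPM in B16/F10-BrM, and 53.6, 45.6 and 60.1 CPM in E0771-BrM, with no overlap between lines. Sox9 was 21.6-fold lower in B16/F10-BrM (-4.44 ± 0.09, adjusted p = 2.82e-39) and 12.2-fold lower in E0771-BrM (-3.60 ± 0.09, adjusted p = 2.4e-36) than in 482N1. Sox21, a repressor in neural progenitors, was low in both lines that held it, at 3.61, 2.41 and 2.54 CPM in 482N1 and 4.79, 3.89 and 3.73 in B16/F10-BrM, and had no count in E0771-BrM. That makes it at least 23-fold lower there than in 482N1.

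Low SOX values in E0771-BrM sat beside the low level of melanocyte RNA. Sox11 in E0771-BrM had 5, 1 and 4 counts, or 0.136%, 0.0258% and 0.107% of the B16/F10-BrM level, lowest in library B as for Dct. In 482N1 the same share was 0.25%, 0.129% and 0.191%, while Dct was at 0.00979% in library B. The part of this RNA in the low SOX counts was not tested. With library B alone of 482N1 and E0771-BrM, the log2 fold changes of E0771-BrM against 482N1 were -12.86 for Sox4 and -2.19 for Sox11. Over all libraries that comparison did not call Sox11 (-1.06 ± 0.49, adjusted p = 0.054) or Sox6 (-1.26 ± 0.76, adjusted p = 0.126). Without replicate B of 482N1 or replicate A of E0771-BrM, Sox11 was called lower in E0771-BrM (-1.28, adjusted p = 0.0299, and -1.47, adjusted p = 0.0278). With library B alone Sox6 was called lower there (-5.40), with no count in that library of E0771-BrM. Hes1, Onecut2, Foxo1 and Klf12 had at most 5 counts in E0771-BrM. With library B alone, where neither line is replicated, their log2 fold changes against 482N1 were -13.01 for Hes1, -15.84 for Onecut2, -11.75 for Foxo1 and -5.84 for Klf12. Library B of E0771-BrM had no count of Hes1, Onecut2 or Foxo1, so those fitted values are no measure of size.

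**Figure D2:**
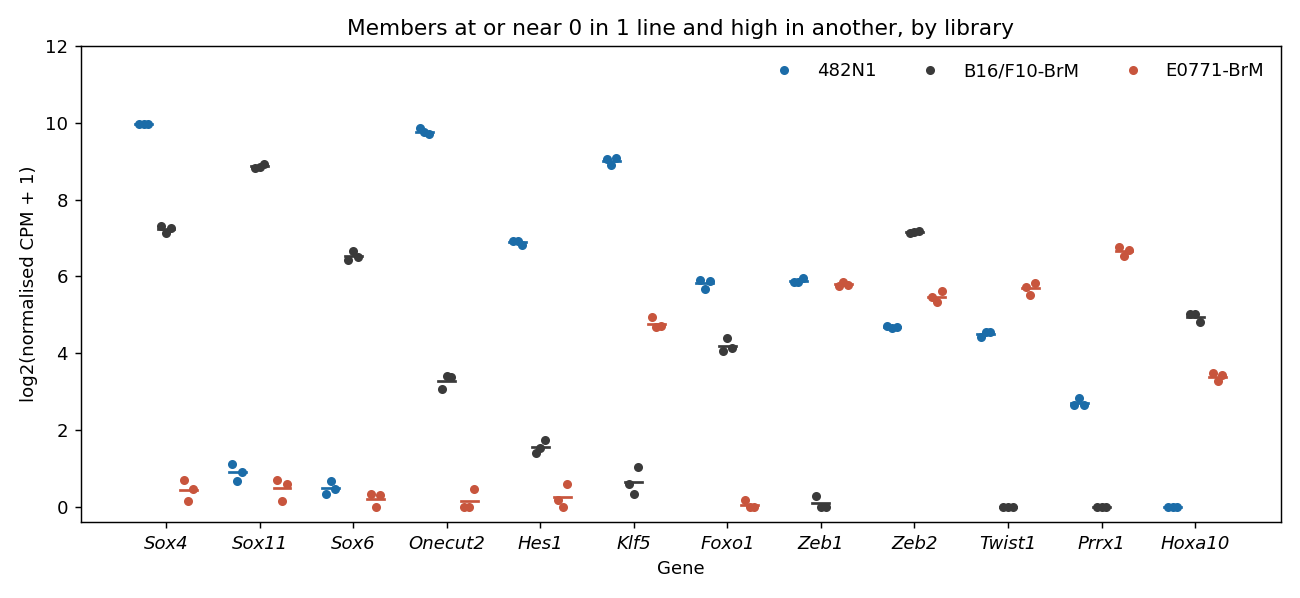
Levels of 12 members in each library (points; log2 of normalised CPM plus 1) with line means (bars), coloured by line. Each gene was at or near 0 in at least 1 line, except Zeb2, shown beside Zeb1, and Sox4 and Sox11 were high in different lines.

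Homeobox genes outside the Hox clusters also differed between lines. Onecut2, a CUT-homeodomain factor of liver and of neuroendocrine cells, stood at 925, 858 and 833 CPM in 482N1, 7.4, 9.53 and 9.44 CPM in B16/F10-BrM, and 0, 0 and 0.374 CPM in E0771-BrM. Its 3 counts in E0771-BrM all came from library C. Onecut2 was 99.2-fold lower in B16/F10-BrM than in 482N1 (-6.64 ± 0.11, adjusted p = 3.62e-41), and the count ratio of 482N1 to E0771-BrM was 7041-fold (95% counting interval 2409 to 34144). Pax9, a factor of pharyngeal pouches and teeth, was at 69.1, 64.8 and 58.4 CPM in 482N1, 1.15, 1.38 and 2.56 CPM in B16/F10-BrM, and 54.2, 53 and 51.6 CPM in E0771-BrM. B16/F10-BrM stood alone, 37.8-fold below 482N1 (-5.24 ± 0.17, adjusted p = 5.47e-31), while E0771-BrM was 1.21-fold below it (-0.28 ± 0.11, adjusted p = 0.0164). That last call was lost without replicate A of 482N1 (adjusted p = 0.0898), without replicate C of E0771-BrM (0.0533) and with library B alone (0.18).

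Pax6, a regulator of eye and forebrain, was present in E0771-BrM. Its levels were 0, 0.241 and 0 CPM in 482N1, 0.313, 0.251 and 0.466 CPM in B16/F10-BrM, and 19.2, 20.5 and 15.6 CPM in E0771-BrM, and the E0771-BrM libraries lay above all others. E0771-BrM exceeded B16/F10-BrM 53.7-fold (5.68 ± 0.33, adjusted p = 7.75e-21), and with 2 counts in 482N1 the count ratio of E0771-BrM to 482N1 was 221-fold (95% counting interval 60.8 to 1829). B16/F10-BrM and 482N1 were not called apart for Pax6 (adjusted p = 0.0714), although the call appeared without replicate B of 482N1 (adjusted p = 0.00999).

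The homeobox factors Six4 and Six5 differed in order. Six4 was highest in E0771-BrM, at 11.7, 11.6 and 9.35 CPM against 1.03, 1.32 and 2.28 in 482N1, 7.04-fold higher (2.81 ± 0.27, adjusted p = 3.03e-13). Six5 was highest in 482N1, with a log2 fold change of -3.18 ± 0.34 in E0771-BrM against it (adjusted p = 7.81e-12). The coactivator Eya1, of the EYA family that acts with such factors, was at 82.1, 95.1 and 97.9 CPM in B16/F10-BrM, 7.48, 3.13 and 5.2 in 482N1 and 0.254, 0.60 and 0.249 in E0771-BrM.

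Both HES genes of the table were highest in 482N1 and lowest in E0771-BrM. Hes1, the classical repressor induced by Notch signals, stood at 121, 120.1 and 111 CPM in 482N1, 1.67, 1.88 and 2.33 CPM in B16/F10-BrM, and 0.127, 0 and 0.499 CPM in E0771-BrM. It was 59.9-fold lower in B16/F10-BrM (-5.90 ± 0.16, adjusted p = 2.98e-34) and 563-fold lower in E0771-BrM (-9.05 ± 0.23, adjusted p = 2.31e-35) than in 482N1. E0771-BrM had 1, 0 and 4 counts of Hes1, so this fold rests on 5 counts. Over the alternatives the log2 fold change ran from -13.01, with library B alone, to -8.48. Hes6, which counters Hes1 during neural and muscle differentiation, was at 65.4, 57.9 and 65.9 CPM in 482N1 and 33.3, 34.1 and 32.9 in B16/F10-BrM (-0.91 ± 0.11, adjusted p = 1.92e-10). E0771-BrM had no count of Hes6, at least 509-fold below 482N1.

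The Notch pathway carries a signal from ligands on 1 cell to receptors on the next, whose cut intracellular part joins Rbpj and Maml proteins to turn on Hes genes. Of 28 listed pathway genes 18 were measured, and between 36.5% and 40.4% of all genes tested were called in any 1 direction of a comparison. In B16/F10-BrM against 482N1, 4 were higher, 12 lower and 2 not called. In E0771-BrM against 482N1 the counts were 4, 10 and 4, and in E0771-BrM against B16/F10-BrM 10, 7 and 1. The ligand Jag1 was high in 482N1 only, at 158, 164 and 152 CPM against 5.73, 3.01 and 4.78 in B16/F10-BrM (-5.11 ± 0.13, adjusted p = 2.5e-35) and 9.77, 9.72 and 11.1 in E0771-BrM (-3.95 ± 0.12, adjusted p = 1.63e-32). The receptor Notch1 had 9.54, 11 and 12.9 CPM in 482N1 and 11.9, 7.92 and 9.1 in E0771-BrM, which were not called apart (adjusted p = 0.342), and 0.938, 0.753 and 0.233 in B16/F10-BrM, 17.4-fold below 482N1 (adjusted p = 2.79e-16).

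Downstream of the receptor the lines differed again. Rbpj, the DNA-binding partner of Notch, had 279, 281 and 269 CPM in E0771-BrM, 1.41-fold above 482N1 (0.50 ± 0.07, adjusted p = 5.62e-08), while Hes1 was near 0 there. Nrarp, a target that feeds back on Notch, had 17.3, 19.6 and 19.9 CPM in 482N1, 1.02, 0.96 and 0.748 in E0771-BrM and no count in B16/F10-BrM, at least 165-fold below 482N1. Psen2, a catalytic subunit of the protease that cuts Notch, was 12.7-fold higher in B16/F10-BrM than in 482N1, at 241, 237 and 248 against 18.4, 20.1 and 18.8 CPM (adjusted p = 1.68e-35).

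Of 12 KLF genes measured, 10 were highest in 482N1, as were 26.3% of all genes tested. In B16/F10-BrM 11 of 12 were lower than in 482N1, against 39.9% of all genes, and Klf12 was not called. In E0771-BrM 11 of 12 were lower than in 482N1, against 40.4%, and Klf16 was not called. Between E0771-BrM and B16/F10-BrM, 8 were higher in E0771-BrM, against 37.2% of all genes, and Klf12 was lower, against 36.5%. Klf3, Klf9 and Klf11 were not called. Family medians of the log2 fold change were -2.05 for B16/F10-BrM and -1.85 for E0771-BrM against 482N1.

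Klf5, a factor of proliferating epithelium, had the widest range of the KLF genes. It stood at 531, 475 and 537 CPM in 482N1, 0.521, 0.251 and 1.05 CPM in B16/F10-BrM, and 29.8, 24.5 and 24.9 CPM in E0771-BrM, with no overlap. B16/F10-BrM held 0.118% of the 482N1 mean (-9.68 ± 0.16, adjusted p = 6.62e-43) and E0771-BrM 5.13% (-4.28 ± 0.10, adjusted p = 3.77e-37). Klf2, known from endothelial and T cells, was at 50.7, 48.5 and 56.8 CPM in 482N1, 0.938, 1.76 and 0.583 CPM in B16/F10-BrM, and 24.7, 23.8 and 23.2 CPM in E0771-BrM, or 2.1% of 482N1 in B16/F10-BrM (-5.58 ± 0.20, adjusted p = 1.14e-29) and 46.0% in E0771-BrM. Klf4, a reprogramming factor that also acts in differentiating epithelium, stood at 138, 159.6 and 159.8 CPM in 482N1, 9.06, 8.28 and 8.85 CPM in B16/F10-BrM, and 31.2, 27.1 and 32.5 CPM in E0771-BrM. That was 5.73% of 482N1 in B16/F10-BrM (-4.12 ± 0.11, adjusted p = 4.31e-34) and 19.9% in E0771-BrM (-2.33 ± 0.10, adjusted p = 1.46e-26).

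Klf6, an immediate early gene in many cells, stood at 452, 509.9 and 512 CPM in 482N1, 169, 168 and 149 CPM in B16/F10-BrM, and 414, 396 and 425 CPM in E0771-BrM. Of the KLF genes called between 482N1 and E0771-BrM it was nearest to equality, at 83.7% of 482N1 (-0.26 ± 0.07, adjusted p = 0.00125). Klf10, a gene induced by TGF-beta, was at 12.5% of 482N1 in B16/F10-BrM, at 4.79, 5.9 and 4.66 against 42, 39.1 and 42.1 CPM (adjusted p = 1.61e-22), and was at 20.6% in E0771-BrM (adjusted p = 5.92e-19). The remaining called members were between 13.2% (Klf7) and 56.2% (Klf16) of 482N1 in B16/F10-BrM, and between 22.4% (Klf3) and 48.6% (Klf11) in E0771-BrM. The Klf11 call between E0771-BrM and 482N1 was lost with library B alone (-0.68, adjusted p = 0.192), as was that of Klf10 between E0771-BrM and B16/F10-BrM (0.40, adjusted p = 0.211). Klf12, which recruits CtBP corepressors, departed from this order. It stood at 8.13, 7.7 and 11.8 CPM in 482N1, 9.27, 8.66 and 12.5 CPM in B16/F10-BrM, and 0.254, 0.12 and 0 CPM in E0771-BrM, so 482N1 and B16/F10-BrM overlapped and E0771-BrM had 3 counts. The count ratio of 482N1 to E0771-BrM was 74.2-fold (95% counting interval 25.1 to 363).

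**Figure D3:**
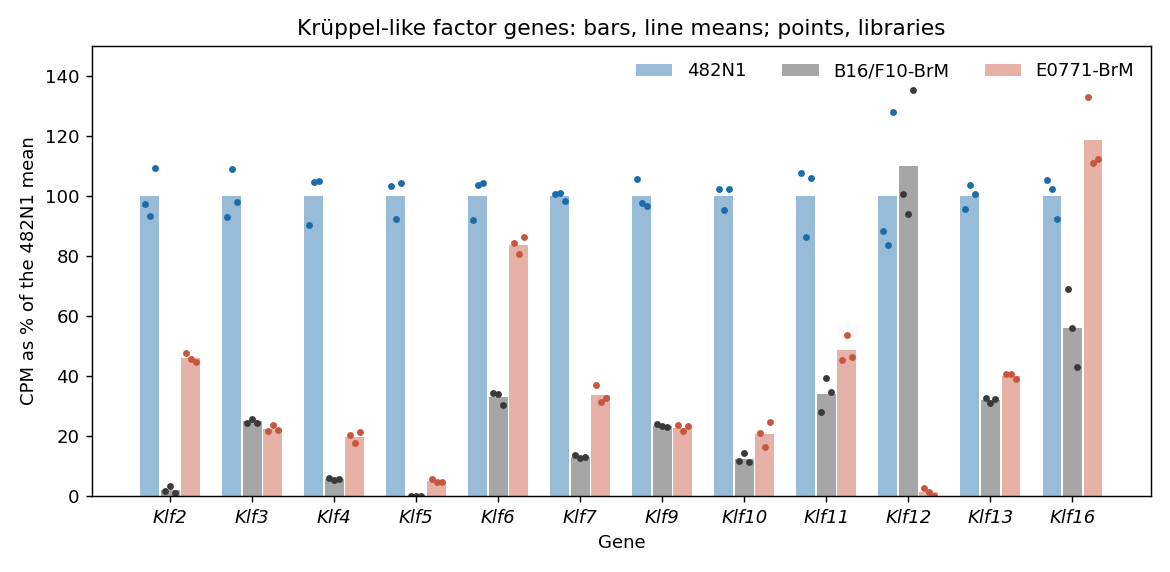
Levels of the 12 KLF genes as a percentage of the 482N1 mean (bars, line means; points, libraries). Bars of B16/F10-BrM and E0771-BrM are below 100% for all genes but Klf12 in B16/F10-BrM and Klf16 in E0771-BrM, neither of which was called against 482N1.

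KLF proteins bind GC-rich letters, so the members' own promoters were searched for GC boxes. Promoters were taken from RefSeq (GRCm38.p6) as the 250 bases before each start, and 47 of the 68 members had an entry, with 63 promoters. The GC box GGGCGG, searched on both strands, was in 53.97% of these and in 32.74% of all 32851 promoters listed. The median number of CpG dinucleotides was 15 against 6. TATAAA on either strand was in 11.11% against 12.37%, and the E-box CAGGTG of Snail and ZEB in 12.7% against 17.22%. All listed promoters cover 27025 genes, many without a row in the counts table, while every member had a row. The sets compared therefore differ in more than gene family. Among 9 KLF genes with 1 listed promoter, 7 had a GC box. Klf3 and Klf4 are shown as examples of the 10 KLF genes called lower than 482N1 in both other lines. The others of these with a listed promoter had 4 (Klf11), 3 (Klf13), 2 (Klf2), 1 (Klf6 and Klf7) and 0 (Klf9) GC boxes. A link between GC boxes and level was not tested. Klf3 lies at chr5:64803271-64803520, plus strand, with 23 CpG dinucleotides and 6 GC boxes, and Klf4 at chr4:55532476-55532725, minus strand, with 32 and 4, of which 1 pair overlaps. Capitals mark the GC boxes.
Klf3: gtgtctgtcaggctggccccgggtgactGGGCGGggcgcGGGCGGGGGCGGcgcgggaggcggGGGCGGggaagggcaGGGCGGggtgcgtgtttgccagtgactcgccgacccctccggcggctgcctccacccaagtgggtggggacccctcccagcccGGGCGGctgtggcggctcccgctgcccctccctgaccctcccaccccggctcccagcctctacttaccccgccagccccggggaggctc
Klf4: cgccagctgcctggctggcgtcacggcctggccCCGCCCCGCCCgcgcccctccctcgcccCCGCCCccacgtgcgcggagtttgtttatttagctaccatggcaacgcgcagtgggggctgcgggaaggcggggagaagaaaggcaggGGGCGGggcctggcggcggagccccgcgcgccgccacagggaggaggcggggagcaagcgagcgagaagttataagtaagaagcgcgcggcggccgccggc
Klf3 stood at 427, 501 and 451 CPM in 482N1, 112, 119 and 112 CPM in B16/F10-BrM, and 99.6, 109 and 101 CPM in E0771-BrM, 4.02-fold lower in B16/F10-BrM (adjusted p = 3.21e-28) and 4.46-fold lower in E0771-BrM (adjusted p = 3.8e-29) than in 482N1.

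The RUNX and GATA genes of the table were highest in 482N1 and lowest in B16/F10-BrM. Runx1, a master regulator of blood stem cells that is also active in epithelium, stood at 177, 201 and 195 CPM in 482N1, 11.5, 12 and 11.5 CPM in B16/F10-BrM, and 18.5, 17.9 and 18.5 CPM in E0771-BrM. It was 16.3-fold lower in B16/F10-BrM (-4.03 ± 0.10, adjusted p = 1.56e-35) and 10.4-fold lower in E0771-BrM (-3.38 ± 0.10, adjusted p = 3.81e-33). Runx2, the bone regulator, was at 36.9, 34.5 and 36.8 CPM in 482N1, 0.208, 0.502 and 0.699 CPM in B16/F10-BrM, and 14.3, 12.1 and 15.3 CPM in E0771-BrM, a 76.8-fold difference between 482N1 and B16/F10-BrM (-6.25 ± 0.25, adjusted p = 1.29e-27). Their shared partner Cbfb varied far less, at 54.8, 53.6 and 61.1 CPM in 482N1, 47, 44 and 47.4 in B16/F10-BrM and 29.6, 31.4 and 40.8 in E0771-BrM, with log2 fold changes of -0.29 and -0.74 against 482N1.

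Gata3, a factor of T cells and of mammary luminal cells, had few counts in all 3 lines. It stood at 2.32, 2.77 and 3.68 CPM in 482N1, 0, 0.125 and 0 CPM in B16/F10-BrM, and 1.14, 1.68 and 1.37 CPM in E0771-BrM. E0771-BrM was 2.09-fold lower than 482N1 (-1.05 ± 0.38, adjusted p = 0.0104), a call lost without replicate C of 482N1 (adjusted p = 0.0676) and with library B alone (adjusted p = 0.355). B16/F10-BrM had 1 count. The GATA cofactor Zfpm2 was at 43, 53.6 and 44.5 CPM in 482N1, 1.65, 2.76 and 1.87 in E0771-BrM (-4.47 ± 0.19, adjusted p = 8.4e-26) and had 1 count in B16/F10-BrM.

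ETV genes encode ETS factors, of which Etv1 and Etv4 belong to the PEA3 group that responds to growth factor signals. Etv1 was high in E0771-BrM, at 2.06, 0.963 and 1.77 CPM in 482N1, 5, 4.14 and 7.57 CPM in B16/F10-BrM, and 86.8, 94.3 and 87 CPM in E0771-BrM. It was 55.8-fold higher there than in 482N1 (5.80 ± 0.18, adjusted p = 9.32e-31) and 16-fold higher than in B16/F10-BrM (adjusted p = 3.16e-28). Etv4 was near 0 in B16/F10-BrM, at 17.3, 19.4 and 17.2 CPM in 482N1, 0.208, 0.376 and 0.117 CPM in B16/F10-BrM, and 21.4, 24 and 20.9 CPM in E0771-BrM. B16/F10-BrM was 76.9-fold below 482N1 (-6.20 ± 0.31, adjusted p = 1.67e-23), and 482N1 and E0771-BrM were not called apart (adjusted p = 0.0597). The repressor Etv6 differed by at most 1.55-fold, at 32.5, 35.4 and 40.2 CPM in 482N1, 26, 32.1 and 26.3 CPM in B16/F10-BrM, and 25.4, 22.4 and 21.9 CPM in E0771-BrM. Its call between E0771-BrM and B16/F10-BrM (adjusted p = 0.0437) was lost under DESeq2 (adjusted p = 0.0669), without replicate B of B16/F10-BrM (0.263) and without replicate B or C of E0771-BrM (0.108 and 0.13). Its call between B16/F10-BrM and 482N1 (adjusted p = 0.00588) was lost without replicate C of 482N1 (adjusted p = 0.056). With library B alone of 482N1 and E0771-BrM both were lost (adjusted p = 0.0929 and 0.0586). Etv3 was highest in 482N1, at 17.1 ± 2.12 CPM (SD, n = 3) against 4.86 ± 0.846 in B16/F10-BrM and 9.92 ± 0.989 in E0771-BrM.

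Id1 and Id3 set B16/F10-BrM apart, and Id2 varied by at most 1.21-fold. Id1, an inhibitor of helix-loop-helix factors that responds to BMP, stood at 192, 205 and 183 CPM in 482N1, 0.521, 1.13 and 0.466 CPM in B16/F10-BrM, and 58.6, 49.4 and 59.1 CPM in E0771-BrM. B16/F10-BrM lay 274-fold below 482N1 (-8.10 ± 0.17, adjusted p = 2.14e-39), and E0771-BrM lay 79-fold above B16/F10-BrM (6.31 ± 0.19, adjusted p = 2.01e-32). Id3 followed, at 120.5, 104 and 112 CPM in 482N1, 6.15, 5.9 and 5.94 CPM in B16/F10-BrM, and 108, 91.4 and 96.6 CPM in E0771-BrM, 18.7-fold lower in B16/F10-BrM than in 482N1 (-4.22 ± 0.12, adjusted p = 1.22e-33). The call of Id3 between E0771-BrM and 482N1 (-0.18 ± 0.09, adjusted p = 0.0496) rested at the threshold and the libraries of those lines overlapped. It was lost in 14 of 18 alternatives, with adjusted p up to 0.302. Id2 was at 395, 343 and 358 CPM in 482N1, 337, 373 and 393 CPM in B16/F10-BrM, and 296, 319 and 295 CPM in E0771-BrM, with 482N1 and B16/F10-BrM overlapping and not called apart (adjusted p = 0.909). E0771-BrM was 1.2-fold lower than 482N1 (-0.27 ± 0.07, adjusted p = 0.0011), a call lost with library B alone of 482N1 and E0771-BrM (adjusted p = 0.465).

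BMP ligands act through receptors and Smad proteins to induce Id genes. Of 25 listed genes 14 were measured, to be read beside the same 36.5% to 40.4% of all genes called in 1 direction. In B16/F10-BrM against 482N1, 1 was higher (Smad5), 11 lower and 2 not called. In E0771-BrM against 482N1, 1 was higher (Bmp1, a protease and not such a ligand), 10 lower and 3 not called. In E0771-BrM against B16/F10-BrM, 7 were higher, 4 lower and 3 not called. The list also holds inhibitors such as Smad7, so a count of lower genes does not measure signalling. The ligand Bmp4 was at 61.7, 58.9 and 52.5 CPM in 482N1 and 6.34, 5.04 and 7.73 in E0771-BrM, and Bmp7 at 34.4, 33.1 and 34.5 CPM in 482N1 and 26.6, 25.4 and 23.8 CPM in E0771-BrM. Neither had a count in B16/F10-BrM, which puts Bmp4 there at least 503-fold and Bmp7 at least 296-fold below 482N1. Smad1, a BMP signal carrier, was 2.89-fold lower in B16/F10-BrM than in 482N1 (adjusted p = 1.04e-15), and the inhibitor Smad7 9.18-fold lower (adjusted p = 1.92e-22). ID proteins bind the E proteins Tcf3, Tcf4 and Tcf12. Against 482N1, Tcf12 was higher in B16/F10-BrM (2.15 ± 0.08, adjusted p = 8.01e-28) and E0771-BrM (1.48 ± 0.08, adjusted p = 3.33e-21), and Tcf3 was lower in both (-0.63 and -0.42).

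Among factors known from epithelial-mesenchymal transition, Prrx1, Twist1, Twist2, Snai1 and Snai2 were highest in E0771-BrM and lowest in B16/F10-BrM, and Zeb2 was highest in B16/F10-BrM. TWIST and PRRX proteins act in embryonic mesenchyme, and Snail and ZEB proteins repress epithelial genes such as Cdh1, which was not analysed here. Prrx1 had no count in B16/F10-BrM and stood at 5.29, 6.14 and 5.32 CPM in 482N1 and 107, 92.3 and 103 CPM in E0771-BrM, which did not overlap. E0771-BrM was 18-fold above 482N1 (4.17 ± 0.14, adjusted p = 4.23e-30) and at least 878-fold above B16/F10-BrM. Twist1 too had no count in B16/F10-BrM, and it was at 20.4, 22.3 and 22.4 CPM in 482N1 and 51.8, 45 and 55.5 CPM in E0771-BrM. It was 2.34-fold higher in E0771-BrM than in 482N1 (1.22 ± 0.12, adjusted p = 1.64e-12) and at least 442-fold higher than in B16/F10-BrM. Twist2 had 1.03, 0.602 and 1.01 CPM in 482N1, 23.5, 21.1 and 18.6 in E0771-BrM and no count in B16/F10-BrM, and E0771-BrM was 23.9-fold above 482N1 (4.56 ± 0.27, adjusted p = 4.8e-20).

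The promoters of Twist1 and Prrx1 are printed since neither gene had a count in B16/F10-BrM and both were highest in E0771-BrM. Twist1 lies at chr12:33957421-33957670, plus strand, with 18 CpG dinucleotides, 1 GC box and 1 TATA box (TATAAA). Prrx1 lies at chr1:163313651-163313900, minus strand, with 4 CpG dinucleotides and 0 of either box. Neither window held CAGGTG. Capitals mark the boxes, in 250 bases before the start (GRCm38.p6).
Twist1: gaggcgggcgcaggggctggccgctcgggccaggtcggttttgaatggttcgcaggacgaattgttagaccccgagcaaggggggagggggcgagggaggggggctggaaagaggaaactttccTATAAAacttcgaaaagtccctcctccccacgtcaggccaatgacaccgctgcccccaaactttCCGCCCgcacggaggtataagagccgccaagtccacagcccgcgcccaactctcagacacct
Prrx1: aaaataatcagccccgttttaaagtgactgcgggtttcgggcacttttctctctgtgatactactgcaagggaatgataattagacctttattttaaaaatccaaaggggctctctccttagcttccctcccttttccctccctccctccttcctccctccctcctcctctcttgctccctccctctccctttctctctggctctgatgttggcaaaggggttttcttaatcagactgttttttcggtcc
The windows of Twist1 and Prrx1 differed in CpG content, and a link between CpG content and level was not tested.

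The Snail and ZEB genes did not share 1 order. Snai1 was at 0.903, 0.722 and 0.254 CPM in 482N1 and 6.47, 5.76 and 8.48 in E0771-BrM (3.43 ± 0.38, adjusted p = 4.45e-11), with no count in B16/F10-BrM. Snai2 stood at 9.42, 10.4 and 7.1 CPM in 482N1, 5.1, 5.39 and 5.36 CPM in B16/F10-BrM, and 34.1, 25 and 19 CPM in E0771-BrM, 2.91-fold higher in E0771-BrM than in 482N1 (1.53 ± 0.18, adjusted p = 3.09e-10) and highest in its library A. Zeb1 was at 57.3, 57.3 and 60.7 CPM in 482N1, 0.208, 0 and 0 CPM in B16/F10-BrM, and 52.8, 57.2 and 54.1 CPM in E0771-BrM. 482N1 and E0771-BrM were not called apart (adjusted p = 0.405), and with 2 counts in B16/F10-BrM the count ratio of 482N1 to B16/F10-BrM was 764-fold (95% counting interval 211 to 6313). Zeb2 was highest in B16/F10-BrM, at 25.2, 24.2 and 24.5 CPM in 482N1, 139, 142 and 145 CPM in B16/F10-BrM, and 42.9, 39 and 47.8 CPM in E0771-BrM. B16/F10-BrM was 5.76-fold above 482N1 (2.53 ± 0.10, adjusted p = 2.48e-28), and E0771-BrM 3.28-fold below B16/F10-BrM (-1.71 ± 0.09, adjusted p = 1.54e-22). The lncRNA row Zeb2os was highest in B16/F10-BrM too, at 2.81, 2.89 and 1.75 CPM against 0.129, 0.722 and 0.507 in 482N1 (adjusted p = 2.69e-05), but the strand setting of the counting is not given in the sources used here, so its reads and those of Zeb2 may not be separate.

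Beside Zeb1, 482N1 held the keratin RNAs Krt8 at 3549.7, 3365 and 3621 and Krt18 at 4329, 3924 and 4287 CPM. E0771-BrM held Krt8 at 208, 171 and 184 CPM and Krt18 at 0.381, 0 and 0.748. B16/F10-BrM had no count of Krt18 in its 3 libraries. The fibroblast markers Col1a2 and Pdgfrb (2 of 7 listed were measured) summed to at most 0.12 CPM in 482N1, 2.5 in B16/F10-BrM and 2.66 in E0771-BrM. They went opposite ways: Pdgfrb, at 2.54, 2.52 and 1.37 CPM in E0771-BrM and 0.938, 0.753 and 0.699 in B16/F10-BrM with no count in 482N1, was highest in E0771-BrM (adjusted p = 2.16e-08 against 482N1 and 0.00456 against B16/F10-BrM), and Col1a2 was lower there than in B16/F10-BrM (adjusted p = 2.32e-05). Of the myeloid list 2 of 7 markers were measured and of the endothelial list 2 of 6. In these lists Cd68 was highest in E0771-BrM, at 17.4, 16.6 and 13.6 CPM against 3.48, 2.53 and 1.52 in 482N1 and 0.625, 0.502 and 0.583 in B16/F10-BrM, as was Egfl7, at 29.3, 32.4 and 28.4 CPM against 3.22, 2.65 and 2.79 and 8.44, 8.28 and 5.83. The other measured markers of these lists, Cd14 and Flt1, were highest in 482N1. Cd14 was at 30.7, 27.8 and 23.2 CPM there and 9.9, 8.76 and 8.35 in E0771-BrM, with no count in B16/F10-BrM. The summed levels of the myeloid list were 24.7 to 34.2 CPM in 482N1, 0.502 to 0.625 in B16/F10-BrM and 21.9 to 27.3 in E0771-BrM. Those of the endothelial list were 90.4 to 104 CPM in 482N1, 5.83 to 8.44 in B16/F10-BrM and 35.3 to 37.4 in E0771-BrM. The part of such cells in the levels of Prrx1, Twist1 and the other members was not tested.

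Of the 14 forkhead rows, called members lay in both directions in each comparison, beside 36.5% to 40.4% of all genes tested in any 1 direction. In B16/F10-BrM against 482N1, 5 were higher and 6 lower, in E0771-BrM against 482N1 6 were higher and 6 lower, and in E0771-BrM against B16/F10-BrM 3 were higher and 7 lower. Foxo1, a factor that AKT keeps out of the nucleus, was near 0 in E0771-BrM, at 59.5, 50.2 and 57.8 CPM in 482N1, 15.6, 19.9 and 16.7 CPM in B16/F10-BrM, and 0.127, 0 and 0 CPM in E0771-BrM. E0771-BrM had 1 count, and the count ratio of 482N1 to E0771-BrM was 1349.8-fold (95% counting interval 242 to 53356). Its relatives varied less. Foxo3 was at 57.1, 46.7 and 72.8 CPM in 482N1, 39.4, 43.2 and 38.3 CPM in B16/F10-BrM, and 18, 18 and 17.7 CPM in E0771-BrM, 3.29-fold lower in E0771-BrM than in 482N1 (-1.71 ± 0.13, adjusted p = 3.33e-16), and Foxo4 ranged between 17.5 and 27.0 CPM over all libraries. Between B16/F10-BrM and 482N1, the Foxo3 call (-0.55 ± 0.12, adjusted p = 4.41e-05) was lost with library B alone (-0.21, adjusted p = 0.175).

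Foxn3, a checkpoint repressor, was low in E0771-BrM alone, at 133, 123 and 142 CPM in 482N1, 117, 121 and 123 CPM in B16/F10-BrM, and 7.23, 6.12 and 8.1 CPM in E0771-BrM. It was 18.6-fold below 482N1 (-4.21 ± 0.11, adjusted p = 3.16e-34) and 16.8-fold below B16/F10-BrM. Foxm1, a driver of mitotic genes, was lowest in 482N1, at 25.4, 18.7 and 19.9 CPM in 482N1, 80.5, 84.8 and 79.1 CPM in B16/F10-BrM, and 72.7, 77.6 and 73.3 CPM in E0771-BrM. B16/F10-BrM was 3.82-fold (1.94 ± 0.11, adjusted p = 5.13e-22) and E0771-BrM 3.5-fold (1.81 ± 0.11, adjusted p = 1.13e-20) above it, and those 2 lines were not called apart (adjusted p = 0.212). Foxc1, a mesoderm factor, was highest in B16/F10-BrM, at 16.7, 18.2 and 15.5 CPM against 1.68, 1.93 and 1.27 in 482N1 (3.35 ± 0.23, adjusted p = 6.11e-18) and 5.84, 6.72 and 6.36 in E0771-BrM. The lncRNA row Foxd2os was at 18.6, 15.3 and 15.6 CPM in B16/F10-BrM and 0.516, 1.2 and 1.01 in 482N1, with no count in E0771-BrM, at least 133-fold below B16/F10-BrM.

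The other forkhead genes differed by at most 4.92-fold. Foxp1, a factor of B cells and lung epithelium, stood at 294, 269.7 and 305 CPM in 482N1, 168, 163 and 174 CPM in B16/F10-BrM, and 179, 173 and 166 CPM in E0771-BrM, 1.72-fold lower in B16/F10-BrM (-0.78 ± 0.07, adjusted p = 1.84e-13) and 1.68-fold lower in E0771-BrM (-0.75 ± 0.07, adjusted p = 7.78e-13) than in 482N1. Foxp4 was 4.53-fold and 4.92-fold lower in the same comparisons. Foxk2 was highest in B16/F10-BrM, at 64.6 ± 4.83 CPM (SD, n = 3) against 21.8 ± 3.21 in 482N1, and Foxk1 lowest there, at 5.83 ± 0.941 CPM against 19.7 ± 2.57. Foxj2 and Foxj3 were highest in E0771-BrM, by 1.54-fold and 1.56-fold over 482N1, and Foxn2 was lowest in 482N1, by 1.4-fold under B16/F10-BrM. With library B alone of 482N1 and E0771-BrM, Foxn2 was not called in B16/F10-BrM (adjusted p = 0.183) or E0771-BrM (adjusted p = 0.43) against 482N1, nor Foxj2 in E0771-BrM against 482N1 (adjusted p = 0.0891), while Foxp4 was called lower in E0771-BrM than in B16/F10-BrM (-0.70, adjusted p = 0.0274). The lncRNA row Zeb2os lost its call between E0771-BrM and B16/F10-BrM in the same fit (adjusted p = 0.151). The Foxo4 call between those lines (adjusted p = 0.021) was lost without replicate A of B16/F10-BrM (adjusted p = 0.0982) or replicate B of E0771-BrM (0.138).

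None of the 3 Hox cluster rows had a count in 482N1. Hox proteins set position along the body axis, and cells in culture often keep the Hox genes of their site of origin. Hoxa10, a posterior HoxA gene, was at 31.7, 31.5 and 27 CPM in B16/F10-BrM and 10.2, 8.64 and 9.72 in E0771-BrM, at least 240.0-fold and at least 75.9-fold above 482N1. Hoxb3, an anterior HoxB gene, was at 3.75, 3.14 and 3.5 CPM in B16/F10-BrM and 6.47, 7.08 and 7.36 CPM in E0771-BrM. The lncRNA row Hoxd3os1 had 2.08, 2.51 and 1.98 CPM in B16/F10-BrM and 3.17, 5.28 and 4.61 CPM in E0771-BrM. All 3 were called higher in both lines than in 482N1, as were 24.2% of all genes tested. A row without counts in 482N1 can be in the table only through its counts in the other lines. Between E0771-BrM and B16/F10-BrM, Hoxa10 was 3.16-fold lower (-1.66 ± 0.16, adjusted p = 3.73e-13), and Hoxb3 2.01-fold higher (1.00 ± 0.25, adjusted p = 0.000507). RefSeq lists 39 protein-coding genes for these clusters, so these rows are a small sample of them.

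MEIS and PBX proteins join Hox proteins on DNA, and all 6 of their rows had counts in every line. Pbx2 was highest in 482N1, at 53.9, 63.2 and 60.7 CPM against 23.4, 30.5 and 25 in B16/F10-BrM and 21.6, 16.4 and 17.8 in E0771-BrM. Pbx3 was lowest in 482N1, at 17.2, 19.4 and 14.3 CPM against 47.1, 52.9 and 50.7 in B16/F10-BrM (1.56 ± 0.12, adjusted p = 3.47e-16) and 45.9, 56 and 43.8 in E0771-BrM (1.52 ± 0.12, adjusted p = 1.33e-15). Meis2 was highest in B16/F10-BrM, at 26.2, 25.8 and 28.8 CPM in 482N1, 105, 108 and 106 CPM in B16/F10-BrM, and 23.9, 25.6 and 26.1 CPM in E0771-BrM, 3.94-fold above 482N1 (1.98 ± 0.10, adjusted p = 1.14e-23), and 482N1 and E0771-BrM were not called apart (adjusted p = 0.418). Meis1 was highest in E0771-BrM, at 6.22, 7.08 and 6.86 CPM against 2.58, 1.68 and 1.01 in 482N1 (adjusted p = 7.24e-08). Meis3 was highest there as well, at 9.01, 7.68 and 6.61 CPM against 4.13, 3.13 and 3.68 in 482N1 (adjusted p = 9.76e-05). The Meis3 call between B16/F10-BrM and 482N1 (adjusted p = 0.0217) was lost without replicate A of 482N1 (adjusted p = 0.0763), without replicate B of B16/F10-BrM (adjusted p = 0.0984) and with library B alone (adjusted p = 0.287).

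Tbx15, a T-box factor of limb mesenchyme and fat, was the T-box row of the table. It stood at 5.03, 7.22 and 6.84 CPM in 482N1, 5.83, 4.89 and 3.96 CPM in B16/F10-BrM, and 38.1, 36.5 and 44.1 CPM in E0771-BrM, so that E0771-BrM lay above the other lines, which overlapped. E0771-BrM was 6.21-fold above 482N1 (2.63 ± 0.16, adjusted p = 5.62e-20) and 8.08-fold above B16/F10-BrM (adjusted p = 1.1e-21).

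**Figure D4:**
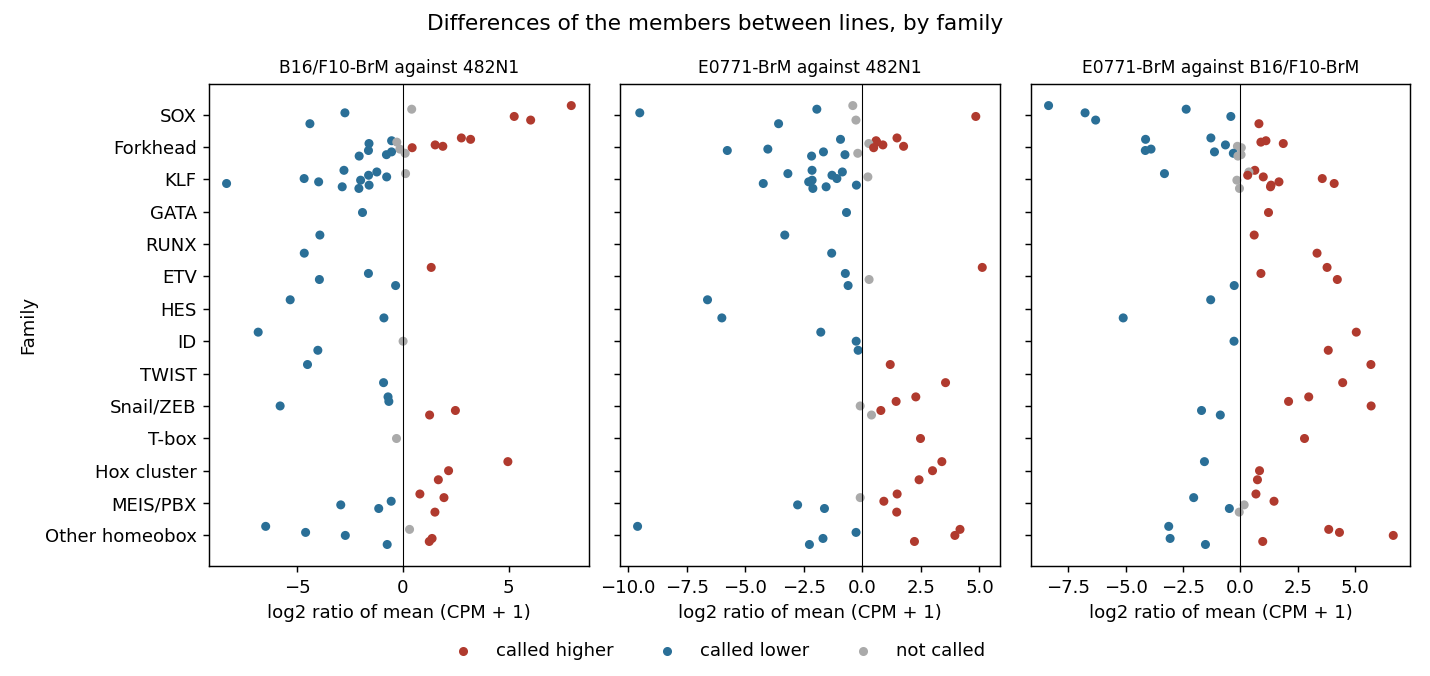
Log2 ratio of mean CPM plus 1 for each member (points) by family (rows) in the 3 comparisons of lines (panels), coloured by call. KLF points lie at or left of 0 in both comparisons against 482N1 except for the uncalled Klf12 and Klf16, while SOX and homeobox points lie on both sides.

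Cofactors that work with these proteins formed a further list of 29 genes, of which 20 had rows. In B16/F10-BrM against 482N1, 9 were higher and 10 lower, in E0771-BrM against 482N1 6 were higher and 12 lower, and in E0771-BrM against B16/F10-BrM 8 were higher and 9 lower, where 36.5% to 40.4% of all genes were called in any 1 direction. Tle5, a short member of the corepressor family that binds HES and RUNX proteins, was at 261, 237 and 246 CPM in 482N1, 164, 165 and 153 in B16/F10-BrM and 17, 16.2 and 14.1 in E0771-BrM, with a log2 fold change of -3.97 ± 0.10 in E0771-BrM against 482N1 (adjusted p = 2.06e-36). The corepressor Ctbp2 was highest in 482N1, 4.34-fold above E0771-BrM (adjusted p = 5.11e-25), while Ctbp1 was lowest there, 1.77-fold below E0771-BrM (adjusted p = 2.38e-12). Tgif1, a repressor of the TALE homeobox class to which MEIS and PBX proteins also belong, was at 95.6, 88.3 and 95.3 CPM in 482N1, 40.0, 34.1 and 30.3 in E0771-BrM and 3.44, 2.38 and 1.86 in B16/F10-BrM, 36.3-fold below 482N1 (adjusted p = 2e-32). Its relative Tgif2 was highest in B16/F10-BrM, at 51.5, 55.5 and 60.9 CPM against 27.6, 23.3 and 21.8 in 482N1 (adjusted p = 2.25e-13).

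Over the partner, Notch and BMP lists together, 52 of 82 genes were measured. In B16/F10-BrM against 482N1, 14 were higher and 33 lower, beside 38% and 39.9% of all genes tested. In E0771-BrM against 482N1, 11 were higher and 32 lower, beside 37.7% and 40.4%, and in E0771-BrM against B16/F10-BrM 25 were higher and 20 lower, beside 37.2% and 36.5%. The 2 genes set aside by the choice of members, Foxa1 and Etv5, were both highest in 482N1 and lowest in B16/F10-BrM. Foxa1, a pioneer factor of endoderm and mammary luminal cells, had 312, 335 and 319 counts in 482N1, 6, 5 and 3 in B16/F10-BrM and 22, 22 and 14 in E0771-BrM. Etv5 had 412, 356 and 363 counts in 482N1, 28, 27 and 17 in B16/F10-BrM and 253, 247 and 246 in E0771-BrM.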

How the data were processed

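RNA of 9 libraries (3 lines, 3 libraries each) was measured by stranded, poly(A)-selected sequencing. The authors deposited raw read counts per gene symbol. Per the submitters' processing notes FastQC, TopHat2 2.0.10, Bowtie 1.0.0, SAMtools 0.1.19, Cufflinks 2.2.1 and the build GRCm39 were used, while the counting tool, annotation, strand setting and selection of rows are not given in the sources used here. Reads of overlapping or antisense genes can therefore be mixed, and no gene in the table had a third-highest count under 8.

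In R 4.3.3 with edgeR 4.0.16, filterByExpr removed 9 of 11046 genes, and all 68 members were among the 11037 tested. Libraries were scaled by TMM, and 1 coefficient per line was fitted over 9 libraries (robust quasi-likelihood, common dispersion 0.0059) with 2-sided F tests, Benjamini-Hochberg adjusted within each comparison at 0.05. Libraries of a line differed by more than sampling noise, so none was counted as a duplicate. A gene with 1 to 3 counts in a line has a ratio with an exact 95% interval. Intervals and the floor of 3 counts cover counting error only.

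Members and lists were chosen with earlier results of these data known. Named members were, per comparison, the 10 highest and 10 lowest by ratio of mean CPM plus 1 among those called with libraries that do not overlap, plus a panel and every Hox row, and the others are named to account for each family, except 2 members that are not reported individually here. Partner and pathway genes named from the lists, and the promoters printed, were picked after their values were seen. Alternatives were RLE and upper-quartile factors, DESeq2 1.42.0, the fit without ribosomal RNA genes, a replicate block by letter, fits that leave 1 library out, fits of 2 lines, fits with library B alone for 482N1 and E0771-BrM, and a gene filter that was absent or set at 1 CPM in 3 libraries. The procedure was also run on simulated counts that gave every gene the same spread, which these data need not share. No statement here rests on that run. Promoters came from RefSeq (GRCm38.p6), and the coordinates are of that build.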

Additional observations from a re-analysis of the deposited data

How the results depend on the processing

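Counts of members called stayed within 1.5 times in the 18 alternatives, with 18 to 20 higher and 38 to 43 lower in B16/F10-BrM against 482N1, 21 to 25 and 32 to 37 in E0771-BrM against 482N1, and 33 to 34 and 23 to 26 in E0771-BrM against B16/F10-BrM. Of 147 single-gene results, 16 changed call or direction somewhere, and the cause was not tested. Directions turned for results that were not called. Id2 in B16/F10-BrM against 482N1 ran from -0.04 to 0.0697 on the log2 scale with single libraries left out (-0.033 without replicate B of 482N1, -0.0056 without its replicate C, -0.0015 without replicate B of B16/F10-BrM, -0.0399 without its replicate C). In E0771-BrM against B16/F10-BrM, Pbx3 ran from -0.16 to 0.0242 with single libraries left out and was 0.16 with library B alone, and Foxp1 was -0.0057 with upper-quartile factors. Etv4 in E0771-BrM against 482N1 was called higher with upper-quartile factors (adjusted p = 0.0446) and with the 2 lines alone (0.036). With library B alone, Klf10 (0.40) and Id2 (-0.20) lost their calls in E0771-BrM against B16/F10-BrM. In every comparison of that fit the spread comes from B16/F10-BrM alone. In that fit 4, 7 and 4 member calls were lost in the 3 comparisons, and 1 was gained in each comparison of E0771-BrM. Other members not called over all libraries were called in some alternatives: Foxk1 in E0771-BrM against 482N1 (adjusted p = 0.0306 to 0.0473 in 4), Klf3 in E0771-BrM against B16/F10-BrM with upper-quartile factors (0.0292), and, in B16/F10-BrM against 482N1, Sox21 (0.0474) and Tbx15 (0.0307) without replicate A of 482N1, Tbx15 without replicate A of B16/F10-BrM (0.0399), Foxj3 without replicate B of 482N1 (0.0324) or C of B16/F10-BrM (0.0391) and Foxn3 without replicate B of 482N1 (0.0357). Scaling moved the median of all genes by at most 0.06.

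With the library letter as a replicate block, members called were 19 higher and 41 lower, 23 and 36, and 34 and 25 in the 3 comparisons, as without it, and the joint test called 68. Same-letter libraries of different lines correlated at -0.0099 to 0.0898 after line means were removed and other pairs at -0.0752 to 0.037, so the letters were not taken as pairs. Depth limits genes at 0, for which 3 counts over a line is the floor, and members with under 10 counts in a line. Ribosomal RNA took 15.02% to 17.6% of counts in 482N1, 9.33% to 11.7% in B16/F10-BrM and 8.3% to 10.5% in E0771-BrM. Groups of 3 libraries were too small for an outlier test.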
